A study of Rattus norvegicus with 160 samples.

Results

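Expression of 5 genes of corticotropin-releasing hormone (CRH), oxytocin and vasopressin signalling was examined in the amygdala and hippocampus of young and adult rats. The 5 genes were Crh (RefSeq transcript NM_031019), Crhr1 (NM_030999), Crhbp (NM_139183), Oxtr (NM_012871) and Avpr1a (NM_053019). They were the array's transcripts whose RefSeq identifier belongs to these rat symbols, among 25902 transcripts measured, of which 9506 carried a rat gene symbol. Each gene had 1 transcript on the array, with a value on all 160 arrays.

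The animals were male Sprague-Dawley rats of 2 selectively bred lines, called LR and HR in the labels, which do not spell the letters out. Their amygdala or hippocampus was dissected at postnatal day 7 (P07), 14 (P14) or 21 (P21) or in adulthood (day 75), and total RNA was hybridised to 1-colour NimbleGen arrays. The title states the question as how maternal style bears on amygdalar development and on social behaviour in anxiety-prone rats. Each age and region held 4 rearing groups of 5 arrays, 32 groups in all. LR pups stayed with their own LR mother (group LR), went to a foster dam of their own line (group LR-LR) or to an HR foster dam (group LR-HR). HR pups stayed with their own HR mother (HR). No fostered HR pups were analysed here, so HR and LR-HR pups, both raised by HR dams, differed in fostering as well as in line. The labels do not name litters or individual dams, so p-values measure the spread between these arrays only.

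CRH is the peptide that starts the hormonal stress response from the hypothalamus, and in the amygdala it is made by neurons of the central nucleus, where it is tied to fear and anxiety. It acts mainly on CRHR1, a receptor coupled to cyclic AMP, while CRH-binding protein (CRHBP) holds the peptide and keeps it from its receptors. Oxytocin and vasopressin are made mostly in the hypothalamus. Their receptors OXTR and AVPR1A, which couple to Gq proteins and calcium release, are found in the amygdala, where they are known for roles in social recognition and social behaviour.

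RefSeq (assembly GRCr8) gave a window from 250 bases before to 50 bases after a start for 4 of the 5 genes, with none for Crh. Those of Crhbp and Oxtr, the genes with the smallest adjusted p-values between rearing groups, are printed 5′ to 3′. Capitals mark matches to the core of the cAMP response element (TGACG, or CGTCA on the other strand) and to the TATA box core TATAAA.
Crhbp, minus strand, chr2:28439397-28439696: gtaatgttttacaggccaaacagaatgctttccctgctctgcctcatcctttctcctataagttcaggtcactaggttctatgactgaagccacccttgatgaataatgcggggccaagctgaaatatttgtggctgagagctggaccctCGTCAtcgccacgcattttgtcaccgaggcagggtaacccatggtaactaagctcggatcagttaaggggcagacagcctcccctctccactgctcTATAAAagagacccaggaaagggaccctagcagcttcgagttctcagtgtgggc
Oxtr, minus strand, chr4:147170450-147170749: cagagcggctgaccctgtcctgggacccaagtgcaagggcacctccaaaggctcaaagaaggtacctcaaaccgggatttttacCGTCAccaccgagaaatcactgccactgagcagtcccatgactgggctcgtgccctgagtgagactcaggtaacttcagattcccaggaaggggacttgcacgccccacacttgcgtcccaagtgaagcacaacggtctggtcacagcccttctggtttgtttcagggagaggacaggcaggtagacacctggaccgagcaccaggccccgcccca
The Crhbp window held CGTCA from base -100 and TATAAA from base -4, counted from the start, and no searched motif overlapped another. The Oxtr window held CGTCA from base -166 and no TATAAA. It lies inside the annotated Oxtr gene (chr4:147154374-147171723), so its start is not the gene's 5′ end. Of the other genes, Avpr1a had TGACG from base -240 and TATAAA from base -212, and no window of Crhr1 held any of these motifs. Searched on both strands, TGACG stood in 21.2% of 33469 promoter windows of the same length, TATAAA in 14.2% and the full element TGACGTCA in 1.83%. A match is a description of the letters and not of a factor's binding.

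Values are log2 intensities. The regions were normalised separately, so the 5 genes' levels were compared only within a region, and the region labels were checked with marker levels relative to each array's median. By that measure, 3 of 4 measured amygdala marker genes stood higher in the amygdala than in the hippocampus, among them Prkcd (0.93 against -0.02). Of 5 measured hippocampal markers, 4 stood higher in the hippocampus, among them Grik4 (1.34 against 0.05), and Wfs1 stood higher in the amygdala. The striatal marker Drd2 stood at 0.95 relative to the array median in the amygdala and at -0.41 in the hippocampus. For each array, the median of its correlations with its single group mates was taken. Over arrays, the median of these values was 0.944 in the amygdala and 0.904 in the hippocampus. The lowest such values were 0.663 (LR replicate 5), 0.682 (LR-LR replicate 5) and 0.683 (LR-LR replicate 4), all in the hippocampus at P21. Fits without these 3 arrays are given for the hippocampal Crhr1 step from P21 to adulthood and the Avpr1a foster comparison at P21. Other hippocampal P21 values include them.

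Over the 80 amygdala arrays the mean log2 intensity was 9.10 for Crhbp, 8.18 for Crhr1, 8.06 for Crh, 7.69 for Oxtr and 5.88 for Avpr1a. Brightness also depends on the probe, so these means do not order the genes by RNA level. The Avpr1a signal was dim, above that of 5.5% of amygdala transcripts. In the hippocampus the random control sequence of the array had a mean log2 intensity of 5.89. There Avpr1a was at or below that control on 29 of 80 arrays, Crhbp on 2, and Crh, Crhr1 and Oxtr on 1 each. A low array signal leaves little room to see a fall, so Avpr1a differences in either region have the least signal behind them.

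**Figure D1:**
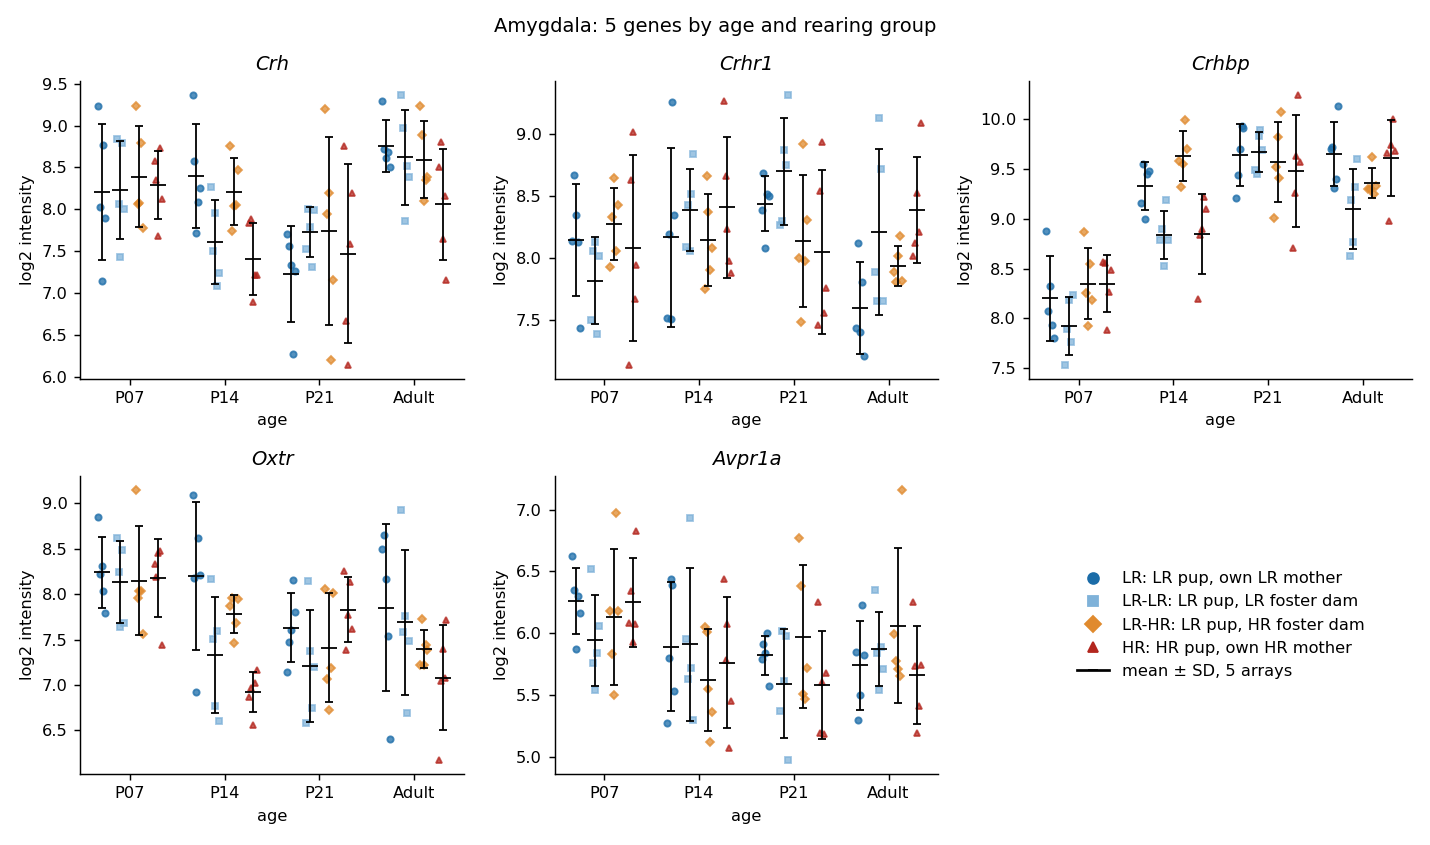
Log2 intensity of the 5 genes in the amygdala (vertical axis) by age (horizontal axis). Each point is 1 array, coloured by rearing group, and black bars give the mean ± SD of 5 arrays. Crhbp climbs from about 8.21 at P07 to 9.59 at P21, and the rearing groups stand apart mainly at P14, where Crhbp runs from 8.84 in LR-LR to 9.63 in LR-HR.

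At each age 4 comparisons were made within each region with limma: LR-HR minus LR-LR (the foster comparison, line of the foster dam), HR minus LR (the line comparison), LR-LR minus LR (fostering within the line) and HR minus LR-HR (pup line under HR dams). They share arrays: LR-LR enters the foster and fostering comparisons, LR the line and fostering comparisons, LR-HR the foster and last comparisons, and HR the line and last comparisons. A call is an adjusted p under 0.05 after Benjamini-Hochberg adjustment over all transcripts of the region. Of 160 tests of the 5 genes, 7 were called and 17 had an unadjusted p under 0.05. All 7 were in the amygdala, 6 of them at P14 and 1 in adults. At P14 in the amygdala, calls were common over all transcripts: 22.3% in the foster comparison, 22.8% in the line comparison, 37.7% in the fostering comparison and 15.3% between HR and LR-HR. Of the 5 genes, 1, 2, 2 and 1 were called in these comparisons, counts that lie within 1 gene of the backgrounds.

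Crhbp, which encodes the protein that sequesters CRH, rose in the amygdala with age and at P14 stood higher in LR pups with an HR foster dam than in those with an LR foster dam. At P14 the LR-HR arrays read 9.58, 9.32, 9.55, 9.99 and 9.70 (mean 9.63 ± 0.25 SD, n = 5). The LR-LR arrays read 8.79, 8.90, 8.53, 9.19 and 8.79 (8.84 ± 0.24). Every LR-HR array lay above every LR-LR array, and such separation held for 20.4% of all transcripts in this comparison. The difference was 0.79 ± 0.21 (SE) on the log2 scale, or 1.73-fold (limma, adjusted p = 0.00767). Of all transcripts, 8.52% were called higher in it. In this tissue homogenate, more cells of a type and more RNA per cell cannot be told apart.

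The HR pups, raised by HR mothers, did not share that level of Crhbp. Their arrays read 8.19, 8.84, 8.90, 9.22 and 9.10 (8.85 ± 0.40), all below the lowest LR-HR array. The HR minus LR-HR difference was -0.78 ± 0.21, 1.72-fold lower in HR (limma, adjusted p = 0.012). Here 9.86% of all transcripts were called lower, and 13.5% did not overlap. LR pups left with their own mother read 9.16, 9.55, 9.0, 9.45 and 9.48 (9.33 ± 0.24). In order of the mean the groups ran LR-HR, LR, HR and LR-LR. Neighbours in that order overlapped: LR reached into the LR-HR range, HR into the LR range, and HR and LR-LR lay over each other. The line comparison of Crhbp was -0.48 ± 0.21 (limma, adjusted p = 0.103) and the fostering comparison -0.49 ± 0.21 (adjusted p = 0.0669), neither called. Both were called after quantile normalisation (adjusted p 0.0265 and 0.00296) and with the filter on transcripts above the median (0.049 and 0.0328). The line value was -0.31 without HR replicate 1 (adjusted p = 0.248).

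At the other ages the 4 Crhbp group means lay closer together and no comparison was called. They ran from 7.92 (LR-LR) to 8.35 (HR) at P07, from 9.48 (HR) to 9.67 (LR-LR) at P21 and from 9.10 (LR-LR) to 9.65 (LR) in adults. A test of whether the foster comparison of Crhbp differed between ages gave an adjusted p of 0.0912 (limma F test, unadjusted p = 0.0437), so the P14 difference was not shown to be larger than at other ages. Over all amygdala transcripts, 41.7% passed that test.

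Crhbp also rose with age. Over the 20 amygdala arrays of an age, its lowest, median and highest values were 7.53, 8.21 and 8.88 at P07. They were 8.19, 9.18 and 9.99 at P14, 8.71, 9.60 and 10.25 at P21, and 8.63, 9.37 and 10.13 in adults. The step from P07 to P14, averaged over rearing groups, was 0.95 ± 0.11, or 1.94-fold (limma, adjusted p = 4.99e-11), against 27.6% of all transcripts called. It was 1.12 in LR, 0.92 in LR-LR, 1.28 in LR-HR and 0.50 in HR. The step from P14 to P21 was 0.43 ± 0.11 (limma, adjusted p = 0.00341, 15.3% of all transcripts called), with 0.31, 0.83, -0.06 and 0.63 in the same order. Without the replicate 3 arrays it was 0.35, with an adjusted p of 0.0692. The group with no positive step, LR-HR, was the one that was highest at P14.

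Crh, the stress peptide itself, was lower in the amygdala of HR than of LR pups at P14, and lower in fostered LR-LR than in unfostered LR pups. The LR arrays read 9.37, 8.58, 7.72, 8.09 and 8.26 (8.40 ± 0.62) and the HR arrays 7.84, 7.89, 6.89, 7.21 and 7.22 (7.41 ± 0.43). Of the 5 LR arrays, 4 lay above all HR arrays, and the groups overlapped through LR replicate 3. The line difference was -0.99 ± 0.30, 1.99-fold lower in HR (limma, adjusted p = 0.0204), and 9.98% of all transcripts were called lower. Without LR replicate 1 it was -0.75 (adjusted p = 0.0684), and without HR replicate 3 it was -0.86 (adjusted p = 0.0607).

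LR-LR pups had Crh values of 8.27, 7.50, 7.96, 7.08 and 7.24 (7.61 ± 0.50), and LR-HR pups 8.75, 7.74, 8.04, 8.05 and 8.47 (8.21 ± 0.40). The fostering difference was -0.79 ± 0.30, 1.73-fold lower in LR-LR than in LR (limma, adjusted p = 0.0436), against 12.7% of transcripts called lower. That call was lost on leaving out any of LR replicate 1, 2 or 5 (adjusted p 0.147, 0.0837 and 0.0524) or LR-LR replicate 2, 4 or 5 (0.0773, 0.116 and 0.104). The foster difference of 0.60 ± 0.30 (limma, adjusted p = 0.168) and the HR minus LR-HR difference of -0.80 ± 0.30 (adjusted p = 0.0778) were not called. The latter was called with the filter on transcripts above the median (adjusted p = 0.0408). By mean the order was LR, LR-HR, LR-LR and HR, and each group overlapped its neighbours.

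Across ages, amygdala Crh had its lowest mean at P21 and its highest in adults. Lowest, median and highest of 20 arrays were 7.14, 8.10 and 9.23 at P07, 6.89, 7.92 and 9.37 at P14, 6.14, 7.58 and 9.20 at P21, and 7.16, 8.52 and 9.36 in adults. From P21 to adulthood Crh rose by 0.97 ± 0.20, or 1.95-fold (limma, adjusted p = 0.000132), and 19.7% of all transcripts were called for that step. The 4 groups gave 1.53 (LR), 0.89 (LR-LR), 0.85 (LR-HR) and 0.59 (HR). Adult LR arrays read 9.29, 8.72, 8.61, 8.69 and 8.51 (8.76 ± 0.31), and adult HR arrays 8.51, 8.80, 7.64, 8.16 and 7.16 (8.06 ± 0.66). Their difference of -0.71 ± 0.31 was not called (limma, adjusted p = 0.0957). It was called after quantile normalisation (-0.91, adjusted p = 0.0365), after centring (-0.86, adjusted p = 0.0373) and without HR replicate 2 (-0.89, adjusted p = 0.0443), and was -0.48 without HR replicate 5 (adjusted p = 0.271). LR-LR (8.62 ± 0.57) and LR-HR (8.59 ± 0.46) adults lay near LR.

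Oxtr, the oxytocin receptor gene, gave the largest of the 20 amygdala differences at P14, between the lines. LR arrays read 9.09, 8.18, 6.92, 8.62 and 8.21 (8.20 ± 0.81), and HR arrays 6.87, 6.97, 6.56, 7.02 and 7.16 (6.92 ± 0.22). HR arrays were tightly grouped, 4 of 5 LR arrays lay above all of them, and LR replicate 3 fell among them. The difference was -1.29 ± 0.32, 2.44-fold lower in HR (limma, adjusted p = 0.00582), and 9.98% of all transcripts were called lower. LR-LR arrays read 8.17, 7.51, 6.77, 7.59 and 6.60 (7.33 ± 0.64), below LR by 0.87 ± 0.32 in the fit. That fostering difference, 1.83-fold, had an adjusted p of 0.0378 (limma), against 12.7% of all transcripts called lower. It was lost without LR replicate 1, 2, 4 or 5 (adjusted p 0.123, 0.0583, 0.086 and 0.0567) or LR-LR replicate 3 or 5 (0.105 and 0.116).

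LR pups with an HR foster dam had Oxtr values of 7.87, 7.96, 7.46, 7.68 and 7.95 (7.78 ± 0.21). All lay above the HR arrays, and 13.5% of all transcripts did not overlap in this comparison. The difference of -0.87 ± 0.32 was not called (limma, adjusted p = 0.0749). A fit on these 2 groups alone called it (adjusted p = 0.0107). The foster comparison, 0.45 ± 0.32, was not called either (adjusted p = 0.351), and the LR-LR arrays spanned the LR-HR range. Leaving out LR-LR replicate 5 gave 0.27, and leaving out replicate 1 of that group gave 0.66, uncalled in both. By mean the order was LR, LR-HR, LR-LR and HR, the same order as for Crh, and LR overlapped LR-HR, LR-HR overlapped LR-LR, and LR-LR overlapped HR.

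The line difference of Oxtr changed with age. HR minus LR was -0.06 at P07, -1.29 at P14, 0.20 at P21 and -0.77 in adults, and the test of its change over ages had an adjusted p of 0.0348 (limma F test). Of all amygdala transcripts, 41.6% passed the same test, and the call was lost without the replicate 1, 2 or 4 arrays (adjusted p 0.159, 0.124 and 0.132). Group means at P07 lay between 8.13 and 8.24. Averaged over groups, Oxtr fell from P07 to P14 by 0.62 ± 0.17 (limma, adjusted p = 0.00395). The step was -0.04 in LR, -0.80 in LR-LR, -0.37 in LR-HR and -1.26 in HR, and without the replicate 3 arrays it was -0.48 with an adjusted p of 0.0745. Lowest, median and highest values were 7.44, 8.21 and 9.15 at P07, 6.56, 7.55 and 9.09 at P14, 6.58, 7.54 and 8.26 at P21, and 6.17, 7.46 and 8.93 in adults. Adult HR (7.08 ± 0.58) and LR (7.85 ± 0.92) differed by -0.77 ± 0.40, which was not called (limma, adjusted p = 0.157). Without LR replicate 5 it was -1.13 and called (adjusted p = 0.0198).

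**Figure D2:**
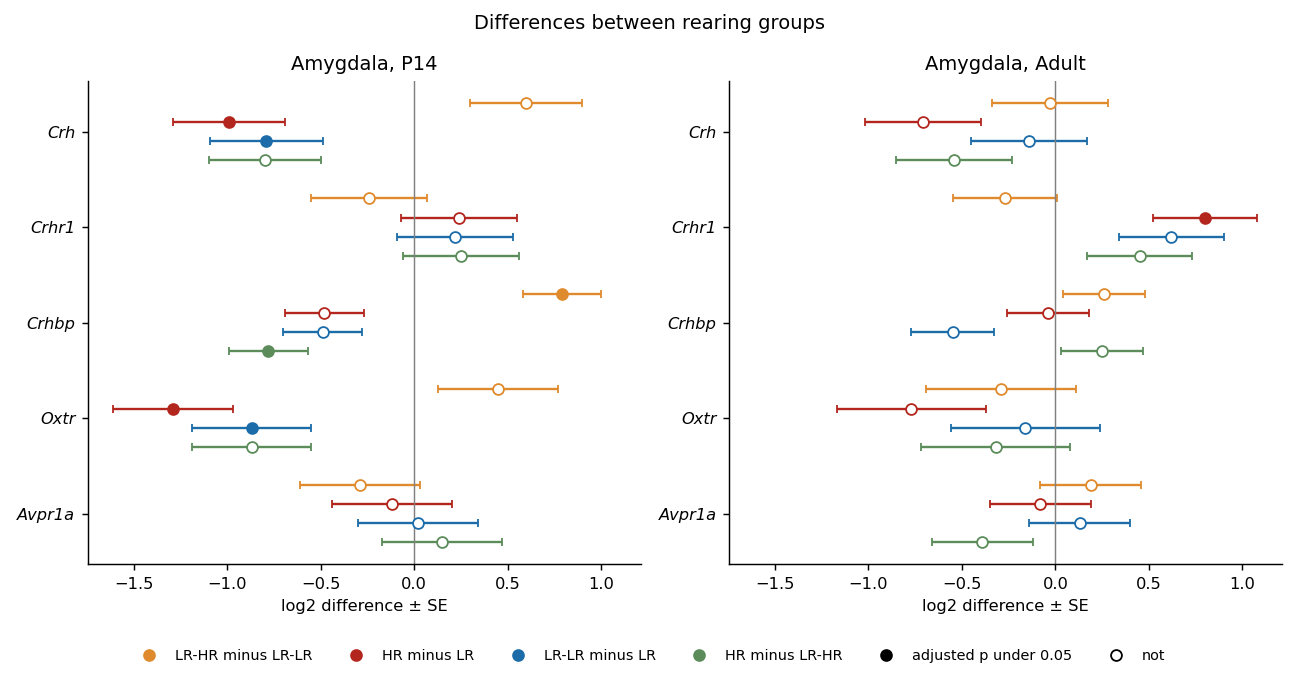
Log2 differences between rearing groups in the amygdala at P14 and in adults (horizontal axis, ± SE) for each gene (vertical axis), with filled points for an adjusted p under 0.05. At P14 the LR-HR minus LR-LR difference of Crhbp is 0.79, and Oxtr is 1.29 lower in HR than in LR. In adults 1 point is filled, Crhr1 at 0.80 in HR minus LR.

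Crhr1, the main CRH receptor gene, was higher in HR than in LR adults. LR arrays read 7.44, 8.12, 7.41, 7.81 and 7.21 (7.60 ± 0.37), and HR arrays 8.02, 8.12, 8.53, 8.21 and 9.09 (8.39 ± 0.43). The HR arrays lay at or above 8.02, and LR replicate 2 reached into them. The difference was 0.80 ± 0.28, or 1.74-fold (limma, adjusted p = 0.035), in a comparison in which 28.1% of all transcripts were called and 20.2% were called higher. It was called for Crhr1 alone of the 5 genes. The call was lost without LR replicate 1, 3 or 5 (adjusted p 0.0707, 0.0737 and 0.0775) or HR replicate 3 or 5 (0.0715 and 0.112). It was also lost after quantile normalisation (0.61, adjusted p = 0.12) and after centring each array on its median (0.65, adjusted p = 0.091).

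Fostered LR adults had Crhr1 values of 7.89, 7.66, 9.13, 8.72 and 7.66 (LR-LR, 8.21 ± 0.67) and 7.89, 7.81, 8.02, 8.18 and 7.82 (LR-HR, 7.94 ± 0.16). Both means lay between those of LR and HR, and the fostering difference of 0.62 was not called (limma, adjusted p = 0.326). At younger ages the means lay between 7.82 and 8.28 at P07, 8.15 and 8.41 at P14, and 8.05 and 8.70 at P21. At P14 the differences of Crhr1 ran from -0.24 to 0.25 over the 4 comparisons. No age step of Crhr1 was called in the amygdala, where the means of 20 arrays were 8.08, 8.28, 8.33 and 8.04 from P07 to adults.

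Avpr1a, the vasopressin receptor gene, was dim on the amygdala arrays and was called in no rearing comparison. Its group means ran from 5.94 to 6.26 at P07, from 5.62 to 5.91 at P14, from 5.58 to 5.97 at P21 and from 5.66 to 6.06 in adults. At P14 its differences ran from -0.29 to 0.15. The step from P07 to P14 was -0.35 (limma, adjusted p = 0.0546). Lowest, median and highest values were 5.50, 6.12 and 6.97 at P07 and 5.07, 5.75 and 6.93 at P14, ranges that overlap over most of their length.

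None of the 20 amygdala tests of the set at P07 was called by limma, and none of the 20 at P21. Of all transcripts at P07, 0.0901% were called in the foster, 0.131% in the line, 0.0586% in the fostering and 0.036% in the last comparison. At P21 the 5 genes' differences ran from -0.56 to 0.50. There 21.6% of transcripts were called in the foster and 15.7% in the line comparison, against 0.0135% in the fostering comparison and 0% between HR and LR-HR. At neither age did a member have an unadjusted p under 0.05. In adults the foster comparison called 21.7% of all transcripts and none of the 5 genes, the fostering comparison 0.658% and none, and HR minus LR-HR 2.8% and none.

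Of 80 hippocampal tests of the 5 genes between rearing groups, 0 were called by limma, and 3 had an unadjusted p under 0.05. Background was low there, with 2.91% (foster), 0.147% (line), 2.59% (fostering) and 0.0116% (HR minus LR-HR) of all transcripts called at P07. In the same order the shares were 0.583%, 2.76%, 1.53% and 1.04% at P14, 0.969%, 0%, 0.0116% and 0% at P21, and 0.00386%, 0.0502%, 0% and 0.0116% in adults. The differences ran from -0.90 to 0.71, and the 3 tests with a small unadjusted p were all of Crhbp. No hippocampal gene of the set passed a by-age test of the foster or line comparison, where 4.69% and 0.992% of transcripts did. The group means of hippocampal Crh ran from 7.19 to 7.98, those of Oxtr from 6.97 to 7.94 and those of Avpr1a from 5.74 to 6.32 over all ages. They were wider for Crhr1, from 6.45 to 7.95, and for Crhbp, from 6.26 to 8.20. At P07 Crhr1 was lowest in LR-LR (6.83) and highest in HR (7.95), and Crhbp lowest in HR (6.26) and highest in LR-LR (7.36), a pair of groups not among the 4 comparisons.

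**Figure D3:**
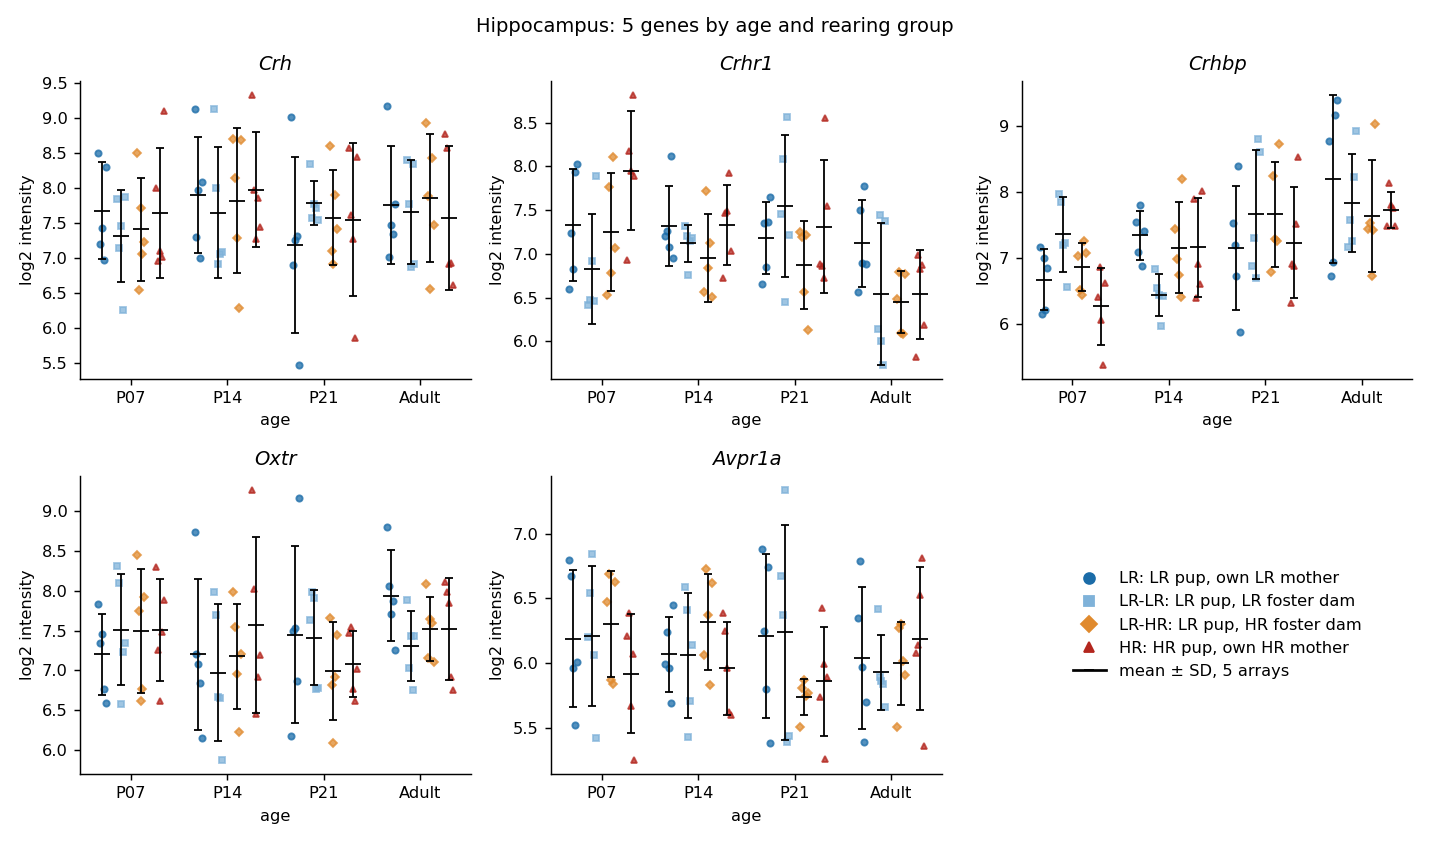
Log2 intensity of the 5 genes in the hippocampus (vertical axis) by age (horizontal axis), 1 point per array, coloured by rearing group, with the mean ± SD of 5 arrays in black. The groups overlap in nearly all panels and ages. Crhbp at P14 is lowest in LR-LR at 6.44, and Crhr1 has its lowest age mean, 6.66, in adults.

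Among the 4 comparisons, the largest hippocampal difference was that of Crhbp between unfostered and fostered LR pups at P14. LR arrays read 7.55, 7.09, 7.80, 6.87 and 7.41 (7.34 ± 0.37), and LR-LR arrays 6.83, 6.54, 6.44, 5.96 and 6.42 (6.44 ± 0.32). Every LR array lay above every LR-LR array, as was so for 5.14% of all transcripts, and 1.53% were called in this comparison. The difference was -0.90 ± 0.33 with an unadjusted p of 0.011 and an adjusted p of 0.187 (limma), so it was not called. LR-HR (7.15 ± 0.69) and HR (7.16 ± 0.75) overlapped both groups. In both regions LR-LR had the lowest P14 mean of Crhbp, close to HR in the amygdala (8.84 and 8.85). Whether rearing differences were unequal between the regions was not tested.

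Of the age steps in the hippocampus, 1 of 15 was called: Crhr1 fell from P21 to adulthood by 0.57 ± 0.18 (limma, adjusted p = 0.0217), with 15.2% of all transcripts called. Lowest, median and highest of 20 arrays were 6.13, 7.22 and 8.56 at P21 and 5.73, 6.78 and 7.77 in adults. The step was -0.05 in LR, -1.01 in LR-LR, -0.42 in LR-HR and -0.77 in HR. Without the 3 P21 arrays that stood apart it was -0.48 ± 0.19 (adjusted p = 0.045). The call was lost without the replicate 1 arrays (-0.50, adjusted p = 0.0993) or the replicate 4 arrays (-0.38, adjusted p = 0.161). Mean hippocampal Crhbp was 6.79, 7.02, 7.42 and 7.85 from P07 to adults, with no single step called in comparisons that called 12.1%, 20.2% and 15.2% of transcripts.

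The foster comparison of hippocampal Avpr1a at P21 depended on arrays that stood apart. LR-LR arrays read 6.67, 6.37, 7.34, 5.39 and 5.44, and LR-HR arrays 5.51, 5.81, 5.87, 5.75 and 5.77. LR-LR replicates 1 to 3 lay above all LR-HR arrays, and replicates 4 and 5, which stood apart over all transcripts, lay below them. The foster difference was -0.50 ± 0.36 with all arrays (limma, adjusted p = 0.489) and -1.05 ± 0.32 without the 3 arrays (adjusted p = 0.0172), an alternative chosen after seeing the data. All 5 LR-LR arrays of that age had a median correlation with their group mates under 0.85.

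Other gene groups moved with the P14 differences in the amygdala, and their part in the results of the 5 genes was not tested. Of 25 ribosomal protein genes, 22 were measured, and their mean log2 intensity was 12.75 in LR, 11.47 in LR-LR, 12.57 in LR-HR and 11.55 in HR. Summed, they ran from 155450 to 199189 in LR and from 150880 to 173567 in LR-HR, against 68019 to 88026 in LR-LR and 79507 to 102335 in HR, with no overlap between these pairs of groups. With an HR rather than an LR foster dam, 20 of 22 were called higher. They were called lower for 22 in HR than in LR, 20 in LR-LR than in LR and 21 in HR than in LR-HR. These are the same directions as the called differences of Crhbp, Crh and Oxtr. At P21 LR-HR had a ribosomal mean of 12.42 against 11.33 for LR-LR, with 18 of 22 called higher, while the foster differences of Crhbp, Crh and Oxtr were -0.10, 0.01 and 0.20, none called. At that age it was 12.19 in HR and 11.31 in LR, with 17 of 22 called higher, and the line differences of Crhbp, Crh and Oxtr were -0.16, 0.24 and 0.20, none called. In adults most ribosomal genes were called lower in HR than in LR. There the line differences of Crhbp, Crh and Oxtr were -0.04, -0.71 and -0.77, none called.

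**Figure D4:**
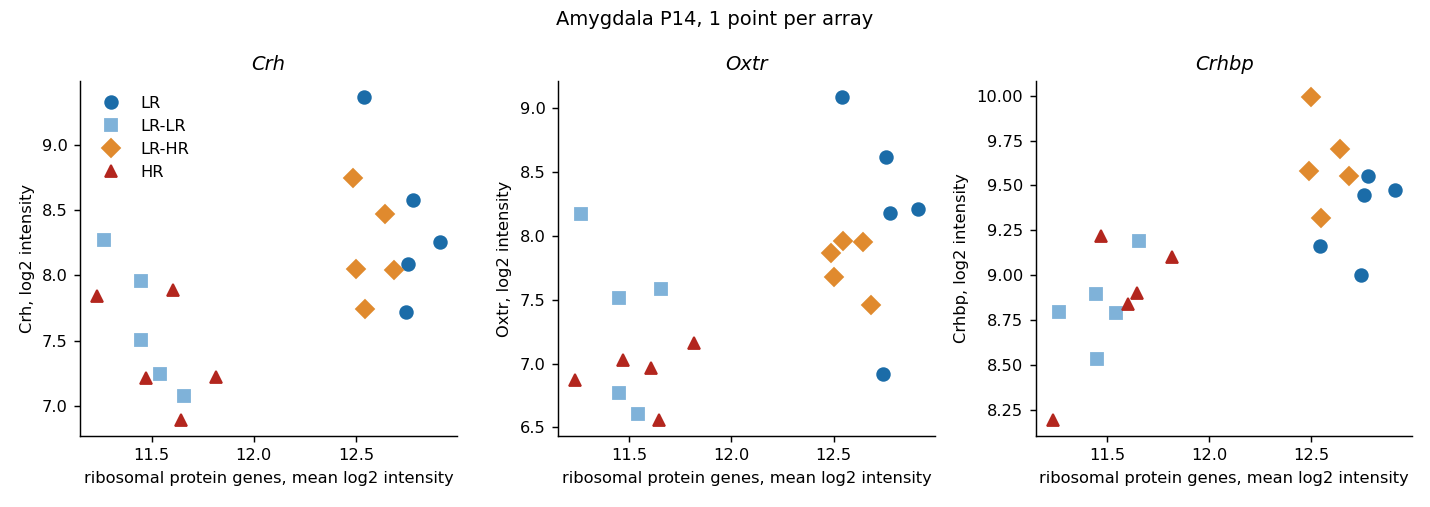
Amygdala arrays at P14, 1 point per array, with the mean log2 intensity of 22 ribosomal protein genes on the horizontal axis and the log2 intensity of Crh, Oxtr or Crhbp on the vertical axis. LR (mean 12.75) and LR-HR (12.57) lie to the right of HR (11.55) and LR-LR (11.47) with no overlap, and the 3 genes are higher on average on the right.

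Markers of neighbouring tissue and of other cells also moved at P14. The summed intensity of 11 measured striatal markers was 10469 to 13801 in LR-LR, 7214 to 8389 in HR, 4319 to 5508 in LR and 4598 to 6027 in LR-HR. Of the 11, 8 were called lower in LR-HR than in LR-LR, with Drd2 lower by 2.48, and 9 were called higher in LR-LR than in LR. The sums of 10 myelin genes ran from 29402 to 83498 in HR against 5959 to 8071 in LR, and 9 of 10 were called higher in HR than in LR. Against LR-HR (11372 to 13662), all 10 were called higher in HR, and none was called between LR-HR and LR-LR. Blood cell markers (8 of 9 measured) summed to 78978 to 93456 in LR, 66466 to 80450 in LR-HR, 42439 to 65152 in HR and 35564 to 49025 in LR-LR. In adults the ribosomal sums were 123998 to 167227 in LR and 75170 to 88056 in HR, with 19 of 22 called lower in HR. The adult myelin sums were 21969 to 29837 in LR and 33090 to 42163 in HR.

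The remaining genes of the pathway were described from a list of ligands, receptors and peptide-processing enzymes (20 genes, 18 measured, the 5 included) and a list of receptor coupling genes (26, of which 21 were measured). At P14 the foster comparison called 1 gene of the first list higher, Crhbp, and 1 lower, Pcsk2, a convertase that cuts peptide precursors (-0.67, limma, adjusted p = 0.0134). The median change of this list was 0.33 against -0.02 for all transcripts. Avp, the vasopressin gene, had a difference of 1.14 (adjusted p = 0.0544) and Oxt, the oxytocin gene, 0.90 (adjusted p = 0.119), neither called. Of the 21 coupling genes, 11 were called lower, none was called higher and the other 10 did not pass, with a median of -0.67. Of all transcripts 13.7% were called lower. Those called lower included Prkacb, a catalytic subunit of protein kinase A (-1.90, adjusted p = 4.3e-06), Gnaq, the Gq subunit (-1.69, adjusted p = 6.39e-06), and Itpr1, the calcium channel opened by inositol trisphosphate (-1.27, adjusted p = 0.000433).

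In the P14 line comparison, 3 of the 18 ligand, receptor and processing genes were called higher and 3 lower in HR, with a median of -0.38 against 0.04 for all transcripts, of which 12.8% were called higher and 9.98% lower. Those lower were Crh, Oxtr and Ucn3 (-0.86, limma, adjusted p = 0.0498), a CRH-family ligand of the second CRH receptor. Those higher were the processing enzyme genes Pcsk2 (0.91), Cpe (0.45, limma, adjusted p = 0.0496) and Pam (0.69). Ucn3 and Cpe thus lay close to the threshold. Of the coupling genes 7 were called higher, among them Itpr1 (1.20) and Gnai2 (0.94), and 1 lower, Rgs2, a brake on Gq signalling (-1.25, limma, adjusted p = 0.00138). The fostering comparison called 3 of 18 higher and 4 lower, against 24.9% and 12.7% of all transcripts. Avp was among the lower (-1.33, limma, adjusted p = 0.015), and Pcsk2 (0.97) and Pam (0.95) were among the higher. It called 14 of 21 coupling genes higher and none lower, led by Prkacb (1.90), Gnaq (1.57) and Adcy2 (1.47). Between HR and LR-HR the first list had 1 called higher, Pcsk2 (0.60), and 1 lower, Crhbp, and the coupling list 5 higher and 1 lower, against 5.48% and 9.86% of all transcripts, with Itpr1 at 1.08, Plcb1 at 1.0 and Rgs2 at -0.99.

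Among adults the line comparison called 4 of the 18 higher in HR and none lower: Crhr1 and the processing genes Pcsk2 (1.62), Pcsk1 (0.95) and Pam (0.90). Of the coupling genes 11 were called higher, led by Prkacb (1.68), Gnaq (1.26) and Grk2 (1.18), and 1 lower, against 20.2% and 7.88% of all transcripts. The adult foster comparison called 2 of 18 higher, Pcsk2 (0.67) and Pam (0.57), and 1 lower, Cd38 (-1.08), whose enzyme is needed for oxytocin release in mice. In it 10 of 21 coupling genes were called higher, led by Adcy5 (1.84), Prkacb (1.37) and Arrb1 (1.23), and none lower, against 17.2% and 4.55% of all transcripts. For the kinase gene Prkacb and for Pcsk2 the foster difference was thus below 0 at P14 and above 0 in adults.

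As a description of likeness, each gene was correlated with 7881 amygdala symbols over the 16 group means of the region. Each mean came from the 5 arrays of 1 age and rearing group. The symbols named had the highest r of all, a choice that by itself favours high values. The genes nearest to Crhbp were Scg5, Itpka and Mocs2 (Pearson r 0.94, 0.94 and 0.93). Nearest to Crh were Pdrg1 (0.90), Pelo (0.88) and Rps7 (0.87), and nearest to Oxtr were Rps4x (0.89), Psmb6 (0.88) and Pcna (0.87). Crhr1 ran closest to Rgs5 (0.84), Adgre5 (0.84) and Panx2 (0.83), and Avpr1a to Srsf3 (0.82), Sema6c (0.82) and Htr1d (0.81). In the hippocampus, with 9386 symbols, Crhbp ran closest to Dpcd (0.91), Crhr1 to Aplnr (0.86), Avpr1a to Or6c63 (0.82), Crh to Gpr119 (0.75) and Oxtr to Orai3 (0.73).

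Between the 5 genes themselves, amygdala group means of Crh and Crhr1 ran against each other (r = -0.60 over 16 groups), and so did the deviations of the 80 arrays from their group means (r = -0.40). Crh and Oxtr ran together over group means (0.48) and within groups (0.31). Crhbp and Avpr1a ran opposite over group means (-0.72) and less so within groups (-0.27). In the hippocampus Crh and Oxtr had r = 0.01 over group means and 0.37 within groups. The within-group values were not adjusted for replicate number. Amygdala replicate 1 arrays deviated from their groups by a mean of 0.67 for Crh, -0.26 for Crhr1 and 0.30 for Oxtr. The part of this pattern in the correlations was not tested.

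Within groups, Crh values lined up with the replicate number given in the sample titles. The replicate 1 array had the highest Crh value in 12 of 16 amygdala groups, with a mean deviation from its group of 0.67 ± 0.39 (SD over groups), and in 14 of 16 hippocampal groups, with 1.04 ± 0.39. For Oxtr it was highest in 8 and lowest in 4 of 16 amygdala groups, with a mean deviation of 0.30 ± 0.62, and highest in 13 of 16 hippocampal groups, with 0.68 ± 0.64. The called differences between groups, all in the amygdala, were 0.78 to 1.29 in size, and each group held 1 array of each number. The labels do not say what the number stands for.

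**Figure D5:**
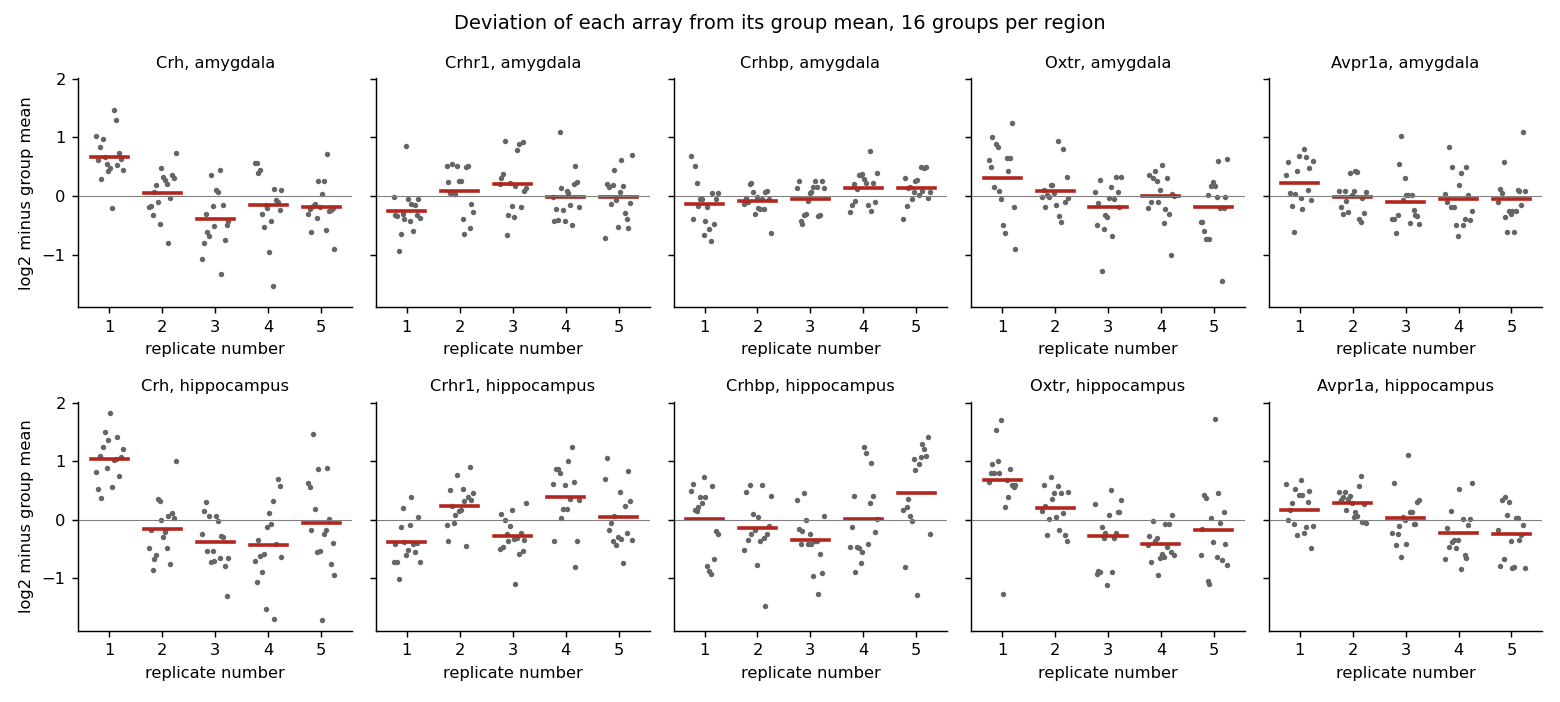
Deviation of each array from the mean of its group (vertical axis, log2) by replicate number (horizontal axis), for each gene in the amygdala and hippocampus, with 16 groups per number and a red line at their mean. Crh replicate 1 arrays average 0.67 above their group in the amygdala and 1.04 above it in the hippocampus.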

How the data were processed

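Expression was measured on 160 1-colour arrays, 5 in each of 32 combinations of region, age and rearing group, taken from the sample titles. The deposited values are linear intensities made by the authors with RMA (background correction, quantile normalisation and probe summary), per the submitters' processing notes, which give no version. The array annotation, genome build, slides and scan dates were not given in the sources used here. The 2 regions held different values and were normalised separately: 22197 transcripts had amygdala values and 25897 hippocampal ones. Array medians ran from 177.5 to 234.8 and from 114.0 to 130.4. There were 0 columns of other samples.

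Deposited intensities were converted to log2 without a pseudocount and without a filter on dim transcripts. Identifiers were matched to NCBI RefSeq (GRCr8), used for names and promoter windows. limma 3.58.1 (R 4.3.3, lmFit and eBayes) was fitted to the 20 arrays of a region and age, and to the 80 arrays of a region for age steps and by-age F tests. Benjamini-Hochberg adjustment ran over all transcripts of a region. An adjusted p under 0.05 was a call, two-sided. Python 3.11.15 made the summaries. The fits were also run on simulated data, with values drawn independently for each array. Those data lacked the replicate-number pattern, so they do not show how the fits behave with it. The number of arrays limits the precision.

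The members and the gene lists were chosen with earlier results of these data known. Beyond the 5 genes, the text names, by rule, at most the 3 most changed of the called genes per pathway list and comparison, the 3 symbols most correlated with a gene, and single list members. Avp and Oxt, ligands of the receptors, and the region markers were named after their values were seen. Alternatives were a pseudocount of 50, a filter on transcripts above the median, quantile normalisation, median centring, fits on 2 groups, a replicate block and leaving out each array. For age steps and by-age tests, all arrays of a replicate number in a region were left out together. Other probes of a member gave no alternative, since each had 1 transcript.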

Additional observations from a re-analysis of the deposited data

Results flagged for a closer look

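In 6 of 160 sets of 5 arrays (5 genes in 32 groups) a single array lay far from the others by Dixon's criterion (gap over range above 0.71), and chance gives about 1 in 20. In adult amygdala, Crh in LR replicate 1 was 9.29, with the next array at 8.72 and the lowest at 8.51. Crhbp in adult amygdala LR-HR replicate 3 was 9.62 (next 9.33, lowest 9.25). Avpr1a in adult amygdala LR-HR replicate 5 was 7.16 (next 5.99, lowest 5.65). Oxtr in P07 amygdala HR replicate 5 was low at 7.44 (next 8.19, highest 8.48). In the hippocampus, Crh in LR-LR replicate 1 at P21 was 8.35 (next 7.77, lowest 7.55), and Crhr1 in LR replicate 4 at P14 was 8.12 (next 7.26, lowest 6.95). None of these 6 groups entered a called difference between rearing groups. The adult LR values of Crh and the P07 HR values of Oxtr entered called age steps.

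The HR minus LR difference of Oxtr in the amygdala differed between ages (limma F test, adjusted p = 0.0348), with -1.29 at P14, -0.77 in adults and values near 0 at P07 (-0.06) and P21 (0.20). The same test called 41.6% of all amygdala transcripts.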

How the results depend on the processing

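Of 352 values of 23 single results under alternatives, 302 kept their side of the threshold, 31 lost a call, 19 gained one and none changed direction. Crhbp at P14 in the amygdala kept its call under every alternative run, with adjusted p from 0.00142 to 0.0274 for LR-HR against LR-LR and from 0.00346 to 0.0383 for HR against LR-HR, as did Oxtr in the line comparison (0.00031 to 0.0221). The foster comparison called 1 of 40 tests over both regions and all ages, and called 2 without the 3 hippocampal P21 arrays, an alternative chosen after seeing the data. Fits on 2 groups only called 0 for fostering (2 in the full fit) and 2 for HR against LR-HR (1 in the full fit), and the filter on transcripts above the median also gave 2 for the latter. Oxtr and Avpr1a lay below that filter in the amygdala at P14, so they have no value under it there. In 2-group fits Crh lost its line call at P14 (adjusted p = 0.0519). Leaving out 1 array of a fit at a time gave 1 to 1 calls in the foster comparison and 1 to 4 in the line comparison (1 without LR replicate 1 or HR replicate 3). It gave 0 to 3 in the fostering comparison and 1 to 1 between HR and LR-HR. Leaving out all arrays of a replicate number in a region gave 4 to 5 age steps, 0 to 0 for the foster comparison by age and 0 to 1 for the line comparison by age. Fostering had 0 calls without LR replicate 1, 2 or 5 or LR-LR replicate 5. Quantile normalisation, centring and the filter made further calls, given beside the results: Crhbp in the line comparison under 2 of these, Crhbp in fostering under all 3 (centring: adjusted p = 0.0159), adult Crh under 2 and Crh in HR against LR-HR under 1. Crhbp in fostering was also called without LR replicate 3 (adjusted p = 0.0433) or LR-LR replicate 4 (0.045). The cause of these changes was not tested.

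The replicate numbers were tried as a block. Same-numbered arrays of different rearing groups at a region and age deviated together (r over 0.1) in 170 of 240 pairs of arrays, not in all. The labels name no shared litter, batch or day, so what same-numbered samples have in common is not known. In the data, 124 of 160 arrays correlated best with their own number among the 5. The main fits do not include the block. With the replicate block, 4 tests were called in the fostering comparison, 3 in HR against LR-HR and 2 in the line comparison by age. The block added calls at P14 for Crhbp in fostering in the amygdala (adjusted p = 0.0378) and the hippocampus (0.0364). The count of 0 hippocampal calls thus holds for the fit of all arrays without the block. Without the 3 hippocampal P21 arrays, Avpr1a was called in the foster comparison at P21 (limma, adjusted p = 0.0172). In the amygdala the block also added Crh (0.0253) and Oxtr (0.0284) in HR against LR-HR at P14 and adult Crh in the line comparison (0.0076). Dim transcripts such as Avpr1a, near the random control, leave the least signal to detect a difference.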

Other observations

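Some genes of the set followed a replicate number other than 1. Crh replicate 3 was the lowest array in 8 of 16 amygdala groups. Crhbp was highest in replicate 4 in 7 of 16 amygdala groups and in replicate 5 in 7 of 16 hippocampal groups, where the mean deviation was 0.46 ± 0.79 (SD over groups). Crhr1 replicate 1 was the lowest array in 6 of 16 amygdala groups and 8 of 16 hippocampal groups, opposite to Crh. Avpr1a replicate 1 was the highest in 8 of 16 amygdala groups.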
